A study of Macaca mulatta with 9 samples.

Results

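The 9 immune genes described here are UBD, HLA-B, CTSS, UNC93B1, RELB, NOS2A, XBP1, FCER1A and DNASE1L3, measured in the prostate of rhesus monkeys whose mothers had received the dioxin TCDD. They were taken by symbol from the authors' deposited table of 1502 probes, which keeps probes by a 1-way analysis of variance (p no higher than 0.05) and by a fold of 1.5 or more, on these same arrays. They are 9 of 1317 genes that could be named on the array. The table holds 10 probes of the 9 genes, of 20217 probes on the array, and all 10 were among the 15160 probes tested. A further CTSS probe with the same transcript accession lies outside the table and is given beside them. Because the table was selected on differences among these arrays, the differences of the 9 genes are a description, and no test is given for them.

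Dams were injected under the skin with vehicle, 30 ng/kg or 300 ng/kg TCDD on day 20 of gestation, and then every 30 days with 5% of the initial amount through day 90 of nursing. The offspring were thus exposed in the womb and through milk, and the labels place necropsy 7 years later. Prostate RNA of 3 offspring per group was measured on 9 Agilent 1-colour arrays, 1 array per animal. The labels call these animals separate offspring but do not say whether any share a dam.

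TCDD binds the aryl hydrocarbon receptor, a transcription factor present in epithelial, stromal and immune cells. RELB is a known partner of that receptor as well as an NF-kappaB subunit. NF-kappaB proteins are held in the cytoplasm until signals from cytokine or pattern receptors release them, and their targets include cytokines, adhesion molecules and genes of antigen presentation. Class I molecules such as HLA-B show peptides of the cell's own proteins to T cells, while class II molecules are loaded in endosomes after proteases such as cathepsin S have trimmed their invariant chain. The prostate is mostly epithelium, smooth muscle and connective tissue with scattered immune cells. In whole tissue, more cells of a type and more RNA per cell cannot be told apart.

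All levels below are log2 values of the processed signal relative to the 75th percentile of the same array, so that 0 stands for that percentile and -6.10 is the floor set for dim spots. The 75th percentile lay between 514 and 1193 signal units on the vehicle arrays, between 343 and 1356 at 30 ng/kg and between 1258 and 2374 at 300 ng/kg, and the 300 ng/kg arrays were thus the brightest as a group. Between 63.9% and 83.9% of spots per array were well above background by the mark of the extraction program. Of the 3 slides, slide 1 carried 2 vehicle arrays, slide 2 carried 2 arrays of 30 ng/kg with the other vehicle array, and slide 3 carried the other array of 30 ng/kg with those of 300 ng/kg. Vehicle and 300 ng/kg were therefore never side by side on a slide. The probes for the prostate secretory proteins KLK3 and MSMB were well above background on all 9 arrays.

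At 300 ng/kg, 6 of the 9 genes lay above vehicle and 3 below, and in all 9 the 3 exposed arrays lay outside the vehicle range. UBD, HLA-B, CTSS, XBP1, FCER1A and DNASE1L3 were higher, and RELB, NOS2A and UNC93B1 were lower. Of all 15160 tested probes, 22.7% had groups that did not overlap in this comparison, 11.5% on the higher side and 11.2% on the lower side, but the genes come from a list selected on it, so nothing is read from the contrast between those shares. The median difference of the 9 genes was 1.39 on the log2 scale, against -0.0059 over all tested probes, and the median size without regard to sign was 2.15 against 0.36. These medians and those below come from the same selection, so nothing is read from them either. CTSS, FCER1A and DNASE1L3 also passed the filter on background only through the 300 ng/kg group, where they were high.

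At 30 ng/kg, 7 of the 9 genes overlapped with vehicle. UBD was higher and RELB lower without overlap, where 9.38% of all tested probes had groups apart, 4.93% higher and 4.45% lower. The median difference of the 9 genes was 0.21, against 0.021 over all tested probes. Between the doses, 4 genes were higher and 2 lower at 300 ng/kg than at 30 ng/kg without overlap, where the shares over all probes were 25.6% in either direction, 11.2% higher and 14.4% lower.

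**Figure D1:**
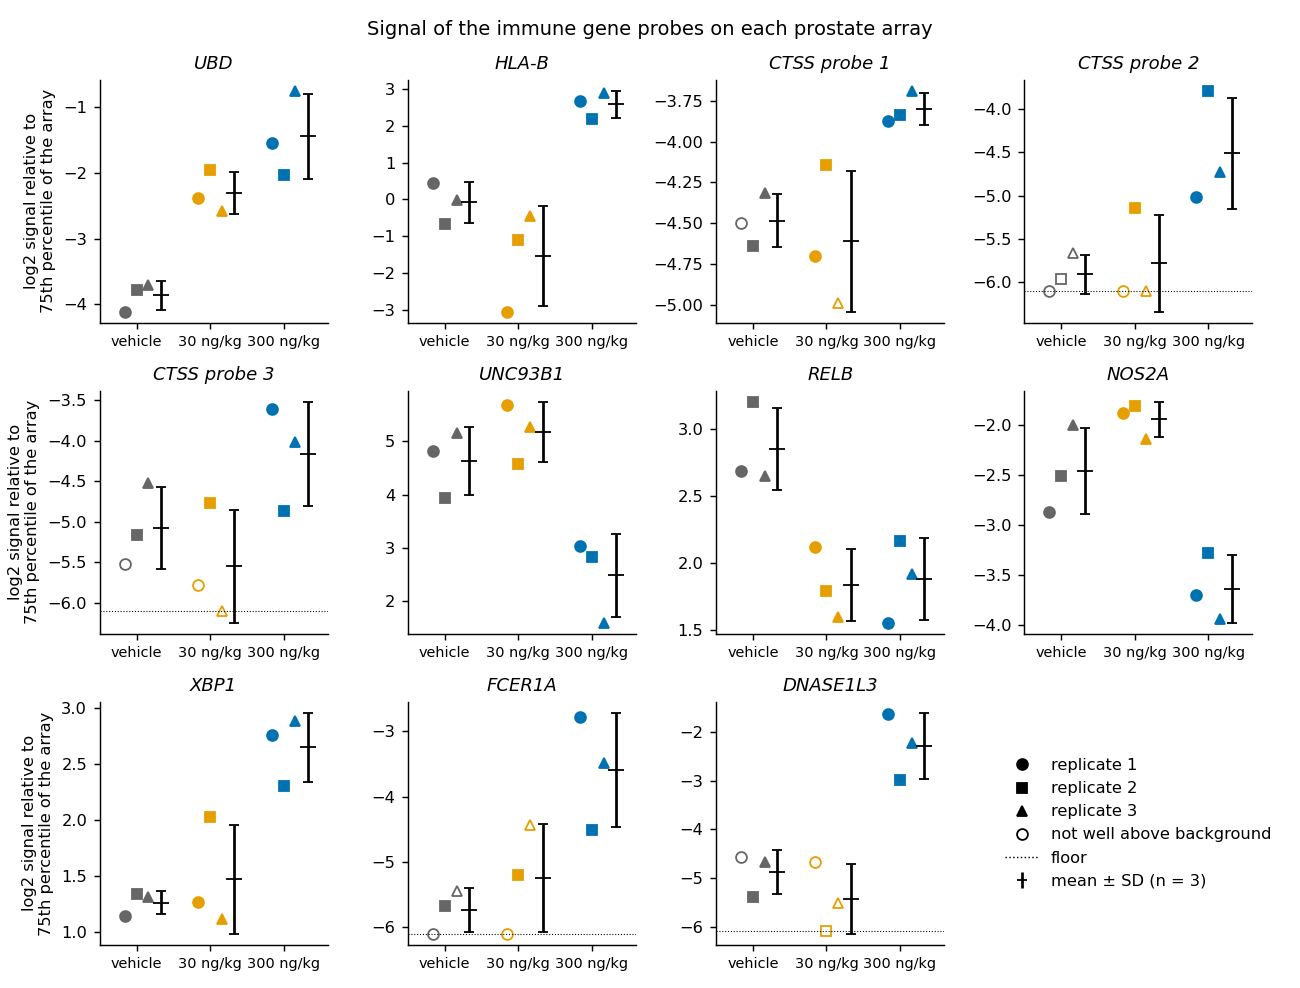
Log2 signal relative to the array's 75th percentile (y axis, with its own range in each panel) for each probe of the 9 genes on each array, by dose from vehicle to 300 ng/kg. Symbols mark the replicate, open symbols arrays on which the probe was not well above background, bars the mean ± SD of 3 arrays, and the dotted line the floor at -6.10. UBD and RELB are apart from vehicle at both doses, and the other genes mainly at 300 ng/kg.

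UBD encodes a ubiquitin-like modifier, also called FAT10, which marks proteins for the proteasome and which interferon gamma and tumour necrosis factor are known to induce together. Its level was -4.11, -3.78 and -3.70 in the vehicle animals, -2.38, -1.95 and -2.58 at 30 ng/kg, and -1.55, -2.03 and -0.75 at 300 ng/kg. Every exposed animal lay above every vehicle animal, and the ranges of the doses overlapped with each other. Vehicle animals averaged -3.86 ± 0.22, animals of the 30 ng/kg group -2.30 ± 0.32 and those of the 300 ng/kg group -1.44 ± 0.65 (SD, n = 3 each). That is a difference from vehicle of 2.42 ± 0.34 at 300 ng/kg, or 5.35-fold, and of 1.56 ± 0.34 at 30 ng/kg, or 2.95-fold (estimate ± SE of limma's fit). Between the doses it differed by 0.86 ± 0.34.

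The UBD probe was among the steadiest of the set. It was well above background on all 9 arrays, and its 2 spots differed by a median of 0.086 on the log2 scale. Each spot alone gave 2.34 and 2.50 for 300 ng/kg minus vehicle. Within slide 2, the 30 ng/kg arrays exceeded the vehicle array by 1.54, and within slide 3, the 300 ng/kg arrays exceeded the 30 ng/kg array by 1.14. With slide as a fixed block in the fit, 300 ng/kg minus vehicle was 2.68. Since vehicle and 300 ng/kg share no slide, that fit joins these within-slide differences. For every gene it thus rests on 1 vehicle array and on 1 array of 30 ng/kg on slide 3, and takes nothing from the vehicle arrays of slide 1. Under normexp background correction, a model-based correction applied to the unprocessed signal, the difference was 1.43. Normexp was run with 50 units added before scaling, which weighs most on dim probes and dim arrays. Between the doses UBD differed by 0.12 under normexp, where the median of all probes stood at -0.52. With array brightness as a covariate the doses differed by 0.29.

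HLA-B encodes a class I heavy chain. Its level was 0.45, -0.66 and -0.02 in vehicle, -3.05, -1.10 and -0.46 at 30 ng/kg, and 2.67, 2.18 and 2.91 at 300 ng/kg. The 300 ng/kg animals lay above all others, while the 30 ng/kg animals spread widely and reached into the vehicle range. It differed from vehicle by 2.66 ± 0.61 at 300 ng/kg, or 6.32-fold, and -1.46 ± 0.61 at 30 ng/kg. Between the doses the difference was 4.12 ± 0.61, or 17.4-fold, and its 95% interval ran between 2.75 and 5.49. Without replicate 1 of 30 ng/kg, the array at -3.05, the difference between the doses was 3.36 and that of 30 ng/kg from vehicle -0.70.

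The size of the HLA-B difference changed when slide was a block. Within slide 3, the 300 ng/kg arrays exceeded the 30 ng/kg array by 3.04, and within slide 2, the 30 ng/kg arrays lay 2.06 below the vehicle array (-2.06). With slide as a fixed block, 300 ng/kg minus vehicle was 0.98 in place of 2.66. The block value joins these within-slide differences, rests on 1 vehicle array and takes in the 30 ng/kg array at -3.05. Whether slides affected HLA-B was not tested. Both spots gave close values, 2.75 and 2.56. HLA-B belongs to a family of near-identical class I genes that is much expanded in macaques, the probe is annotated by a human transcript, and the symbol was not found in the macaque gene table used here. Which macaque class I genes the probe reports was not tested.

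CTSS encodes cathepsin S, the endosomal protease that prepares class II molecules for peptide loading in antigen-presenting cells. Its brightest probe stood at -4.50, -4.64 and -4.31 in vehicle, -4.70, -4.14 and -4.99 at 30 ng/kg, and -3.87, -3.83 and -3.69 at 300 ng/kg. At 300 ng/kg the animals lay closely together and above the others. The difference from vehicle was 0.69 ± 0.25 at 300 ng/kg, or 1.61-fold, and -0.13 ± 0.25 at 30 ng/kg. In the authors' deposited table this probe had a fold of 1.61 at 300 ng/kg, the member nearest to the table's minimum.

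The other CTSS probes were dimmer. The second one of the authors' table was well above background on 0 vehicle arrays, 1 of 30 ng/kg and all 3 of 300 ng/kg. Its 300 ng/kg mean was 2.22-fold above a limit set for the vehicle arrays. That limit is the lowest signal of any probe well above background on the array, or the probe's own signal where higher. The brightest CTSS probe was not well above background at -4.50 on vehicle replicate 1. The limit is thus no detection limit of a given probe, and 2.22-fold is not a strict lower bound. The CTSS probe outside the table stood at -5.53, -5.17 and -4.52 in vehicle, -5.78, -4.77 and -6.10 at 30 ng/kg, and -3.61, -4.87 and -4.01 at 300 ng/kg. Its 300 ng/kg animals overlapped with vehicle, and the difference was 0.91 ± 0.45. All 3 probes were thus above vehicle at 300 ng/kg with this processing, and all 3 turned under normexp, to -0.16, -0.19 and -0.17. Normexp moved the median of all probes by -0.22, and relative to that shift the CTSS probes stood at 0.06, 0.03 and 0.06. The 50 units it adds exceed the processed signal of every CTSS probe in vehicle, the highest being 47.9. Values of such dim probes under normexp depend on the added units and on array brightness, so no direction is read from the turn. The shift of the median probe need not hold for dim probes either.

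UNC93B1 encodes the chaperone that carries nucleic-acid-sensing Toll-like receptors to endosomes. Its level was 4.82, 3.93 and 5.16 in vehicle, 5.69, 4.57 and 5.27 at 30 ng/kg, and 3.02, 2.83 and 1.59 at 300 ng/kg. All 3 animals at 300 ng/kg lay below the other 6 animals. Relative to vehicle it stood at -2.16 ± 0.48 at 300 ng/kg, 4.46-fold lower, and 0.54 ± 0.48 at 30 ng/kg, where the groups overlapped. Within slide 3 the 300 ng/kg arrays lay 2.79 below the 30 ng/kg array (-2.79).

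The spots of the UNC93B1 probe did not give the same signal. They differed by a median of 0.90 on the log2 scale and by up to 2.71, on replicate 3 of 30 ng/kg, where they read 5.27 and 2.56. Over all tested probes the median gap was 0.15 and the 95th percentile 0.35, and 0.033% of probes had a gap as large as that of UNC93B1. The extraction program marked 2 of its spots as outliers, which were left out of the averages. Spot 1 alone gave -1.79 and spot 2 alone -2.43 for 300 ng/kg minus vehicle, with no overlap of the groups at either spot. At 30 ng/kg the spots gave 0.60 and -0.03.

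RELB encodes the NF-kappaB subunit of the noncanonical pathway, which pairs with p52 and is needed for dendritic cell maturation and lymphoid organ stroma. Its level was 2.69, 3.21 and 2.65 in vehicle, 2.12, 1.79 and 1.59 at 30 ng/kg, and 1.55, 2.17 and 1.91 at 300 ng/kg. All 6 exposed animals lay below all vehicle animals, and the doses overlapped with each other. The difference from vehicle was -0.97 ± 0.26 at 300 ng/kg, 1.96-fold lower, and -1.02 ± 0.26 at 30 ng/kg, 2.02-fold lower. Between the doses it was 0.04 ± 0.26, with a 95% interval between -0.55 and 0.64.

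The size of the RELB difference at 300 ng/kg changed when slide was a block and with the spot read. On replicate 1 of 300 ng/kg the spots read 2.26 and 0.08, and spot 1 alone gave -0.73 and spot 2 alone -1.48 for 300 ng/kg minus vehicle, again with no overlap. With slide as a fixed block the difference was -0.42. Without any scaling between arrays it was 0.13, where the median of all probes stood at 1.10 beside brighter 300 ng/kg arrays. Relative to that median RELB stood at -0.97, close to the scaled value by construction and so no further support for it. Within slide 2 the 30 ng/kg difference was -0.70.

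**Figure D2:**
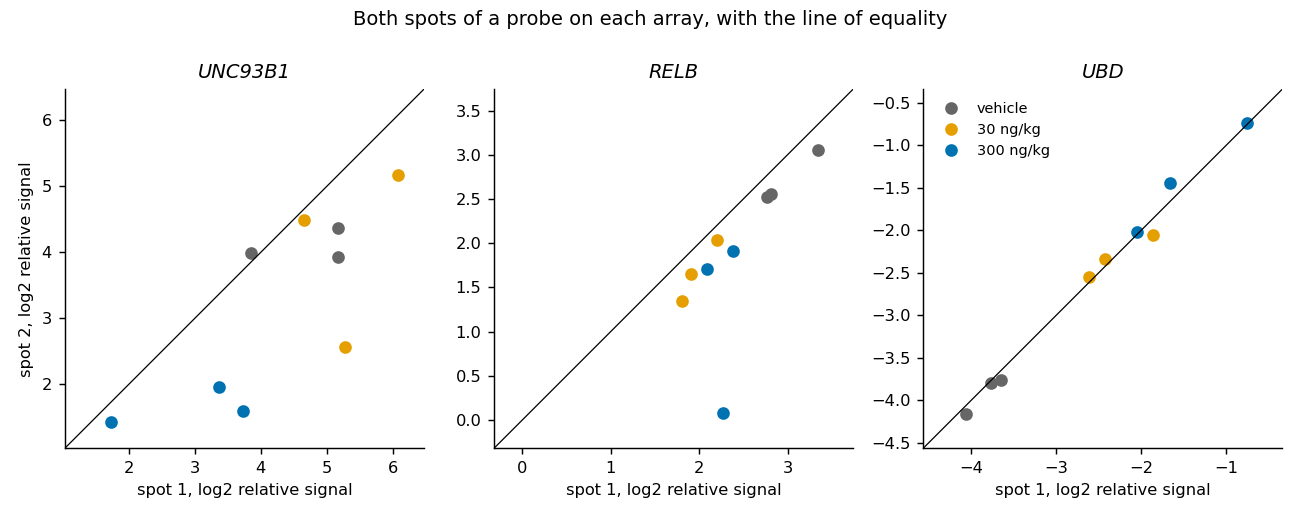
Log2 relative signal of spot 2 (y axis) against spot 1 (x axis) of the same probe on each of 9 arrays, with the line of equality. UBD lies on the line, RELB has 1 array of 300 ng/kg far below it (2.26 at spot 1 and 0.08 at spot 2), and UNC93B1 lies below it on most arrays, by up to 2.71.

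NOS2A is the older symbol of NOS2, inducible nitric oxide synthase, which NF-kappaB and interferon signals switch on in macrophages and epithelia. Its level was -2.87, -2.51 and -2.00 in vehicle, -1.88, -1.81 and -2.14 at 30 ng/kg, and -3.70, -3.27 and -3.94 at 300 ng/kg. All 3 animals at 300 ng/kg lay below the others, and the 30 ng/kg animals lay around the highest vehicle animal. Relative to vehicle it stood at -1.18 ± 0.28 at 300 ng/kg, 2.26-fold lower, and 0.52 ± 0.28 at 30 ng/kg. Between the doses the difference was -1.69 ± 0.28, and within slide 3 it was -1.50. Its spots differed by a median of 0.082, and slide as a fixed block gave -1.34 for 300 ng/kg minus vehicle. Without scaling between arrays the difference was -0.08, against the median of 1.10 over all probes.

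XBP1 encodes the transcription factor that the endoplasmic reticulum's stress sensor IRE1 activates by splicing, and that secretory epithelium and plasma cells use to enlarge their secretory machinery. Its level was 1.14, 1.34 and 1.31 in vehicle, 1.27, 2.03 and 1.12 at 30 ng/kg, and 2.76, 2.31 and 2.89 at 300 ng/kg. The 300 ng/kg animals lay above all others, and among the rest replicate 2 of 30 ng/kg was the highest. It differed from vehicle by 1.39 ± 0.28 at 300 ng/kg, or 2.62-fold, and 0.21 ± 0.28 at 30 ng/kg. Between the doses it was 1.18 ± 0.28, and within slide 3 it was 1.53. Slide as a fixed block gave 1.87 for 300 ng/kg minus vehicle, normexp gave 1.40 and array brightness as a covariate gave 1.00.

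FCER1A encodes the ligand-binding chain of the high-affinity IgE receptor of mast cells, basophils and some dendritic cells. Its level was -6.10, -5.68 and -5.44 in vehicle, -6.10, -5.20 and -4.44 at 30 ng/kg, and -2.78, -4.51 and -3.49 at 300 ng/kg. The 300 ng/kg animals lay above the vehicle animals, and 1 animal at 30 ng/kg reached just above the lowest of them. The probe was well above background on 1 vehicle array, 1 array of 30 ng/kg and 3 of 300 ng/kg, so that most of the lower values lie near the floor. The difference from vehicle was 2.15 ± 0.51 at 300 ng/kg and 0.49 ± 0.51 at 30 ng/kg. With slide as a fixed block the 300 ng/kg difference was 0.64. Under normexp it was 0.38, where the 50 units added exceed the probe's signal in vehicle (at most 23.3).

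DNASE1L3 encodes a secreted nuclease, made mainly by macrophages and dendritic cells, that digests DNA in chromatin and on microparticles. Its level was -4.58, -5.40 and -4.66 in vehicle, -4.68, -6.10 and -5.52 at 30 ng/kg, and -1.63, -2.98 and -2.23 at 300 ng/kg. At 300 ng/kg the animals lay far above all others, and the 30 ng/kg and vehicle animals overlapped. The probe was well above background on 2 vehicle arrays, 0 of 30 ng/kg and all 3 of 300 ng/kg. The difference from vehicle was 2.60 ± 0.45 at 300 ng/kg, or 6.07-fold. Against the limit described for CTSS, set on the 30 ng/kg arrays, the 300 ng/kg mean was 7.33-fold higher, again not a strict lower bound. Slide as a fixed block, in a fit that includes arrays not well above background, gave 2.51 for 300 ng/kg minus vehicle. Under normexp that difference was 1.12, with 50 units added to vehicle signals of at most 31.5.

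**Figure D3:**
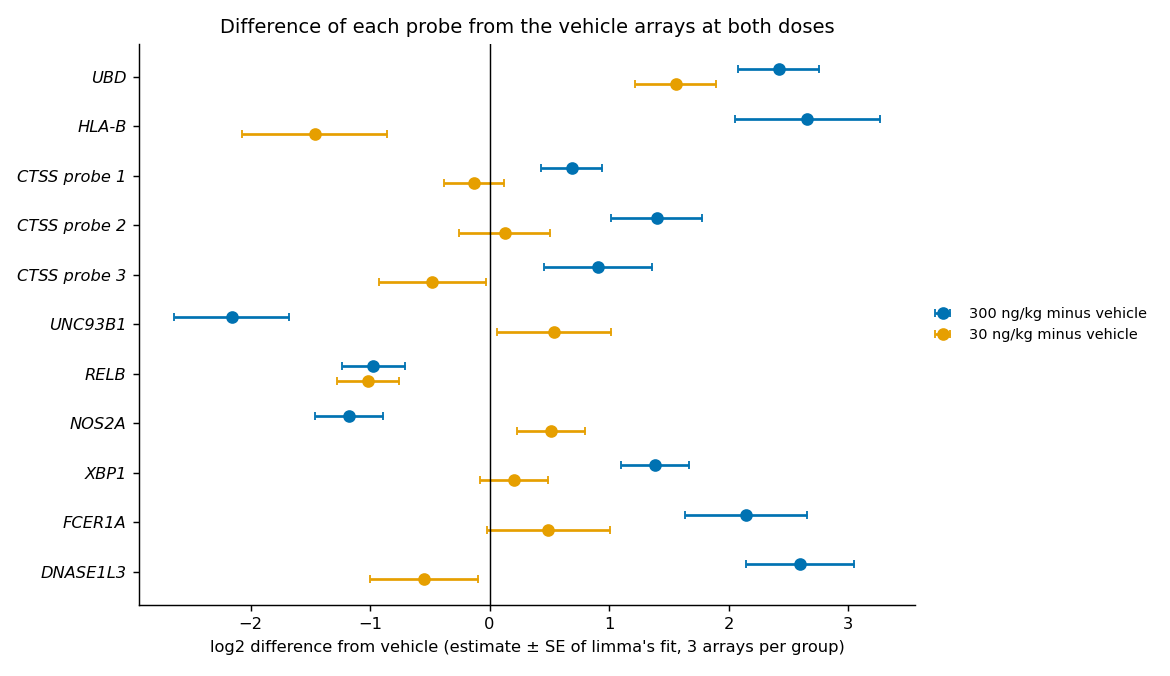
Log2 difference from vehicle (x axis, estimate ± SE of limma's fit, 3 arrays per group) of each probe at 300 ng/kg and at 30 ng/kg. At 300 ng/kg the values run between -2.16 for UNC93B1 and 2.66 for HLA-B, while at 30 ng/kg UBD stands at 1.56 and HLA-B and RELB lie below -1. CTSS probe 2 in vehicle and DNASE1L3 at 30 ng/kg were well above background on 0 of 3 arrays, so those plotted differences rest on signals near background.

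The doses thus gave different orders of the genes relative to vehicle. Both comparisons share the vehicle arrays. HLA-B stood at 2.66 at 300 ng/kg and at -1.46 at 30 ng/kg, NOS2A at -1.18 and 0.52, and UNC93B1 at -2.16 and 0.54. At 30 ng/kg all of these genes overlapped with vehicle. With slide as a fixed block the 30 ng/kg values were -2.06 for HLA-B, 0.16 for NOS2A and -0.03 for UNC93B1. RELB had nearly the same value at both doses, and UBD was higher at both. The 30 ng/kg values of CTSS, XBP1, FCER1A, UNC93B1 and DNASE1L3 changed sign under at least 1 alternative processing, so no direction is given for them there.

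Among the 300 ng/kg animals, replicate 2 was the nearest to the vehicle mean for 7 of the 9 genes and replicate 1 for CTSS and UNC93B1. Of the 3434 probes whose 300 ng/kg and vehicle arrays did not overlap, replicate 2 was the nearest for 50.5%, replicate 1 for 37.2% and replicate 3 for 12.3%. The 75th percentile of signal was 1258 on replicate 1, 1612 on replicate 2 and 2374 on replicate 3, and the part of brightness in this order was not tested. At 30 ng/kg, replicate 2, the brightest array of its group at 1356 signal units, was the highest of the 3 for UBD, XBP1, NOS2A and all 3 CTSS probes. It was the lowest for UNC93B1 and DNASE1L3 and lay between the others for HLA-B, RELB and FCER1A. The shares over all probes were not counted.

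**Figure D4:**
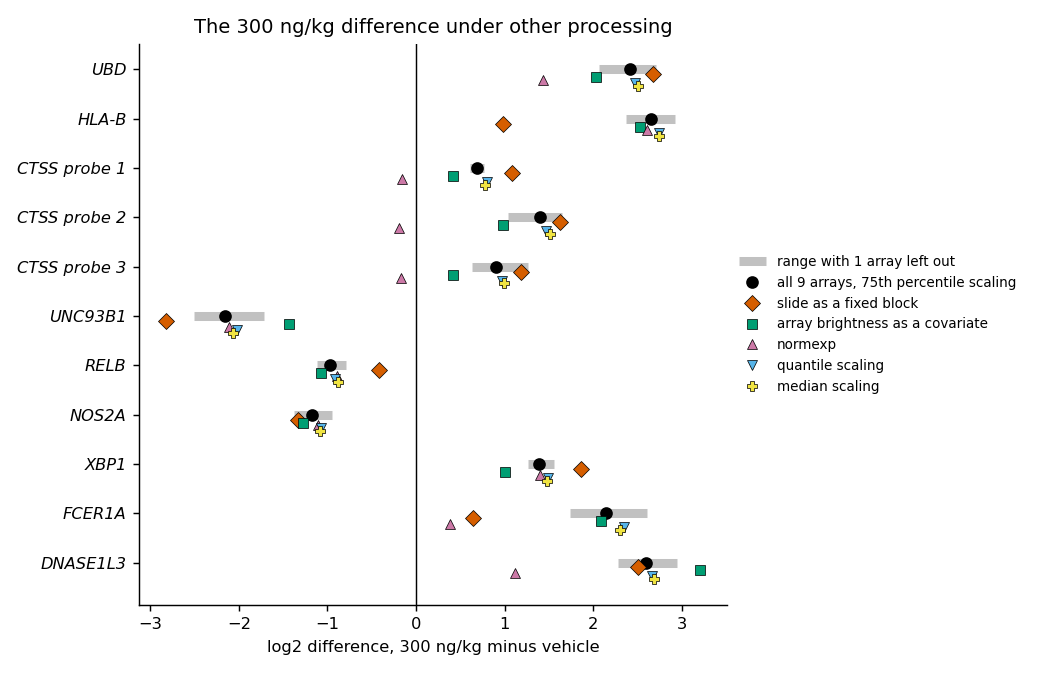
Log2 difference, 300 ng/kg minus vehicle (x axis), of each probe with all 9 arrays, over the fits that leave out 1 array (grey bar) and under other processing. HLA-B (0.98), FCER1A (0.64) and RELB (-0.42) move towards 0 with slide as a fixed block, the CTSS probes cross 0 under normexp, and UBD, XBP1, NOS2A, UNC93B1 and DNASE1L3 keep their sign.

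Partners of these genes were looked up in 8 pathway lists. Only probes with a gene symbol could be named, and 10 genes of the lists other than the 9 above were named and tested, all 10 from the authors' table. At 300 ng/kg, 7 of the 10 lay above vehicle and 3 below, 7 were higher and 2 lower without overlap, and 0 passed an adjusted p of 0.05 in limma's fit. Over all tested probes the shares without overlap were 11.5% higher and 11.2% lower. Their median difference was 0.73, against -0.0059 over all tested probes. At 30 ng/kg 1 was higher without overlap, 0 were lower and 0 passed, where 4.93% of all tested probes were higher and 4.45% lower without overlap. Like the 9 genes, they come from a list selected on these arrays, so nothing is read from these counts.

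The unfolded protein response had the most named members, 5 of 15 with XBP1. ATF6, the stress sensor that becomes a transcription factor after cleavage in the Golgi, stood at 0.96 ± 0.30 for 300 ng/kg minus vehicle. DNAJB9, an endoplasmic reticulum co-chaperone, stood at 0.71 ± 0.23, the disulfide isomerase PDIA4 at 1.00 ± 0.26, and SEC61B, a subunit of the channel through which proteins enter the endoplasmic reticulum, at 1.14 ± 0.27. In all 4, which the authors' table also selected on these arrays, the 300 ng/kg animals lay above every vehicle animal, as they did for 11.5% of all tested probes. At 30 ng/kg the 4 genes lay between -0.09 and 0.18 and overlapped with vehicle. The 300 ng/kg values stayed above 0.6 under normexp, quantile and median scaling and with slide as a fixed block, and above 0.4 with brightness as a covariate.

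Of the NF-kappaB list, 4 of 29 genes were named and tested, RELB included. TNFAIP2, a target of tumour necrosis factor, stood at 1.35 ± 0.35 and BIRC2, a ubiquitin ligase that limits noncanonical NF-kappaB signalling, at 0.74 ± 0.18 for 300 ng/kg minus vehicle. IKBKG, the regulatory subunit of the kinase that frees canonical NF-kappaB, stood at -0.88 ± 0.29. BIRC2 was also the gene that lay above vehicle at 30 ng/kg without overlap, at 0.38 ± 0.18. The NF-kappaB genes thus lay on both sides of vehicle at 300 ng/kg, except without scaling between arrays, where IKBKG stood at 0.21 and RELB at 0.13 against a median of 1.10 over all probes.

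Of the interferon list, UBD, IRF7 and IFI35 were tested. IRF7, the transcription factor that amplifies type I interferon, stood at -0.18 ± 0.27, and IFI35, an interferon-induced protein, at -0.72 ± 0.32 for 300 ng/kg minus vehicle. Without scaling between arrays these values were 0.92 and 0.38, again under the median of all probes. UBD was the sole tested interferon-list gene above vehicle at that dose once arrays were scaled. Of the class I list, HLA-B and CANX were tested, and CANX, the calnexin chaperone that holds new class I heavy chains, stood at 0.73 ± 0.25. In the lists of class II presentation, innate sensing, inflammatory mediators and DNases, no gene other than CTSS, UNC93B1, NOS2A and DNASE1L3 was named.

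**Figure D5:**
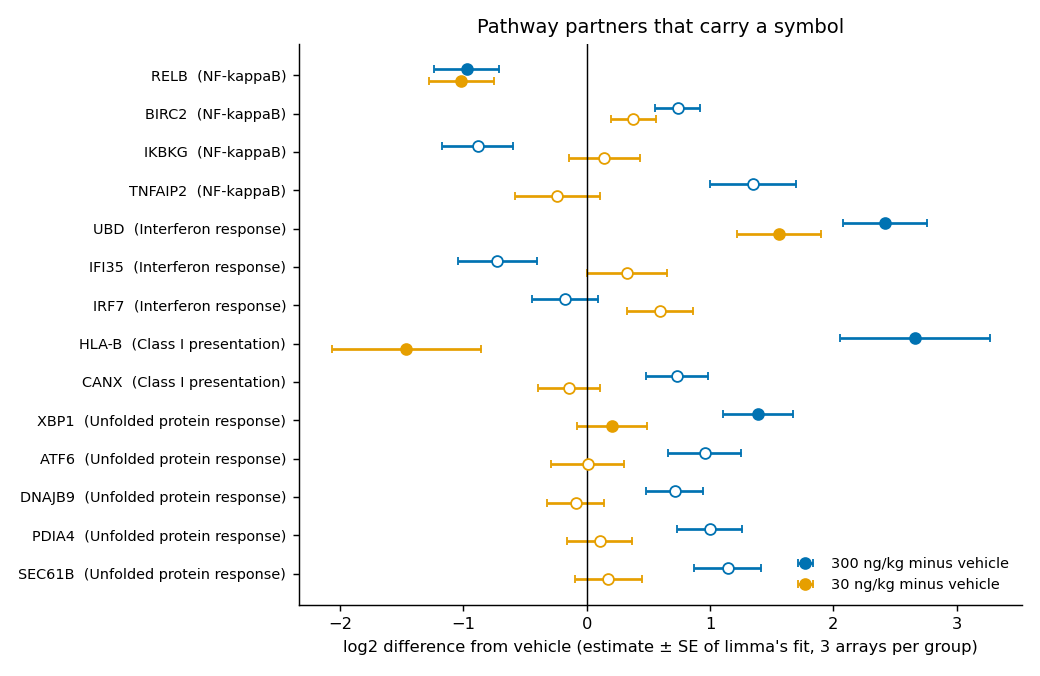
Log2 difference from vehicle (x axis, estimate ± SE of limma's fit) at 300 ng/kg and 30 ng/kg for the tested genes of the pathway lists, filled for 4 of the 9 genes and open for their partners. The unfolded protein response genes lie between 0.71 and 1.39 at 300 ng/kg and near 0 at 30 ng/kg, while the NF-kappaB genes lie on both sides of 0 with this scaling.

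Markers of immune cell types gave little to set beside these values. FCER1A was the sole named gene of 10 mast cell markers, XBP1 of 13 B and plasma cell markers, and CTSS and DNASE1L3 of 19 macrophage and dendritic cell markers. None of the 14 T and NK cell markers, 6 neutrophil markers or 4 red cell markers was named. Of the tissue markers, none of which passed the adjusted test, at 300 ng/kg minus vehicle COL1A1 and COL1A2 of fibroblasts stood at 1.54 ± 0.41 and 0.75 ± 0.29, and LMOD1 and TPM2 of smooth muscle at -0.80 ± 0.28 and -0.73 ± 0.32. The tested luminal genes went different ways, with TGM4 at 8.87 ± 1.44 and MSMB at -0.73 ± 0.36, and for KLK3, whose probe had 10 saturated spots, no size is given. Of basal epithelium, S100A2 stood at 1.55 ± 0.57 and ITGB4 at 0.21 ± 0.24. The S100A2, ITGB4, MSMB and PECAM1 groups overlapped with vehicle at that dose, and S100A2 was well above background on only 6 of 9 arrays. The adipocyte gene LPL stood at 1.24 ± 0.29 and the endothelial gene PECAM1 at 0.00 ± 0.29. At 30 ng/kg minus vehicle PECAM1 stood at 1.31 ± 0.29, LPL at 1.52 ± 0.29 and ITGB4 at 0.72 ± 0.24, higher without overlap. The other tissue markers overlapped with vehicle there. Without overlap, 11.5% of all tested probes were higher and 11.2% lower at 300 ng/kg, and 4.93% and 4.45% at 30 ng/kg. The tissue markers also come from the authors' table selected on these arrays, so nothing is read from them. The part of cell type makeup in the immune gene values was not tested.

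The named genes with the most similar profile over the 9 arrays were found by Pearson's r among 1176 others, as a description over arrays that share slides and doses. NFE2L3 was the most similar to UBD (0.988) and WDR1 to RELB (0.964). CREB3L2 (0.983) and PDIA4 (0.977) were the most similar to XBP1. MCL1 was nearest to HLA-B (0.935), MRPL47 to CTSS (0.965), CATSPER2 to FCER1A (0.987), GSTM1 second nearest to NOS2A (0.956), TSPAN10 second nearest to UNC93B1 (0.985) and PRDX6 nearest to DNASE1L3 (0.973). These genes come from the same selected table or share an accession with it.

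Over the whole array, 0 of 15160 probes (0%) passed an adjusted p of 0.05 in limma's fit at 300 ng/kg against vehicle, where the smallest adjusted p was 0.16. The same count was 0 at 30 ng/kg against vehicle, with a smallest adjusted p of 0.95, and 0 between the doses, with 0.10. At an unadjusted p under 0.05 the counts were 2357 (15.5%), 766 (5.05%) and 3130 (20.6%) of the tested probes. These counts moved with the processing and with the arrays used. In the same order they were 1116, 691 and 528 with array brightness as a covariate. They were 1246, 397 and 4459 under normexp, and 4634, 3149 and 5950 with array weights. For 300 ng/kg against vehicle, 997 were left without replicate 3 of 300 ng/kg and 1418 without vehicle replicate 1. Without replicate 2 of 300 ng/kg there were 2860. For 30 ng/kg against vehicle there were 1937 without replicate 2 of 30 ng/kg, 438 without its replicate 1, 410 without its replicate 3 and 503 without vehicle replicate 2. Between the doses there were 1592 without replicate 1 of 30 ng/kg, 1718 without its replicate 3 and 1618 without replicate 3 of 300 ng/kg. That count was 4629 without replicate 2 of 30 ng/kg. The residual SD per probe had a median of 0.40 on the log2 scale, which is the spread between animals and arrays together. The authors' deposited table gave the same direction as these values for 10 of 10 probes at either dose. Both rest on the same arrays, so this is no further support for any direction, at 30 ng/kg included.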

How the data were processed

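Image extraction by the authors used Agilent Feature Extraction 9.5.1.1, per the file headers. The deposited processed signal is an intensity, background-subtracted for each array on its own. The authors' deposited table gives each fold as a ratio together with its direction, and log2 group means of the raw signal. It also has 9 columns of array flags, not used here, and its normalized means were not used either.

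The mean signal of the 2 spots of a probe, outlier spots left out, was divided by the 75th percentile of its array, limited from below at 5 units of the dimmest array, and log2-transformed. The filter kept 15160 probes that were well above background on every array of some group, and these entered 1 limma fit (limma 3.58.1, R 4.3.3) of all 9 arrays, with Benjamini-Hochberg adjustment over all of them, 2-sided. The fit was tested on simulated data. Precision is limited by the number of arrays.

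Groups follow the labelled dose. Groups lie largely on different slides, so slide was tried as a block. Probes outside the authors' table were named where they share an accession with it, which named 1390 probes. The genes, lists, tests and the rule for naming genes (the 9 genes, the tested genes of the lists, and the 2 most similar genes of each) were chosen with earlier results of these data known. Probes with no symbol were not analysed here, and no sequence is given. Replicate numbers were not used to pair animals in limma's fit of all 9 arrays. Deviations of same-numbered animals correlated at -0.26 to 0.54. With so few arrays per group, and groups largely on different slides, these correlations cannot settle whether the numbers pair animals. Alternatives were normexp background correction (on the median signal, offset 50), other scaling, filters, floor, blocks and weights, and each array left out.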

Additional observations from a re-analysis of the deposited data

How the results depend on the processing

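The 3 array-wide counts of 0 changed under some alternatives. For 300 ng/kg against vehicle the count was 198 with array weights, 373 with no scaling between arrays (an alternative added after seeing the data), and 0 to 271 with 1 array left out, 271 being without replicate 2 of 300 ng/kg. For 30 ng/kg against vehicle it was 6 with slide as a fixed block and 0 to 1 with 1 array left out, 1 without replicate 2 of 30 ng/kg. Between the doses it was 1 with quantile scaling, 3 with median scaling, 2 with slide as a fixed block, 2951 with array weights, 5798 with no scaling, and 0 to 774 with 1 array left out: 774 without replicate 2 of 30 ng/kg, 155 when replicate 2 of 300 ng/kg was omitted and 1 without vehicle replicate 1. The cause was not tested.

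The median difference of the 9 genes at 300 ng/kg (1.39) was 0.38 under normexp, 0.21 over the 6 genes left by a filter on all 9 arrays, 2.49 with no scaling, and 1.27 to 1.56 with 1 array left out. At 30 ng/kg (0.21) it was -0.11 with slide as a fixed block or with 1 slide alone, 0.63 under normexp, -0.30 with no scaling and -0.07 to 0.28 with 1 array left out. Between the doses (0.86) it was 0.12 under normexp, 0.42 with brightness as a covariate, 2.47 with no scaling and 0.72 to 1.16 with 1 array left out. The median of all probes stood at 1.10, -0.49 and 1.58 with no scaling and at -0.22, 0.29 and -0.52 under normexp.

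With replicate number as a block, the median differences were 1.39, 0.21 and 0.86 and the counts 0, 0 and 1. At 300 ng/kg, 7 of 10 probes kept their sign in every setting tried. The exceptions were both CTSS probes of the authors' table under normexp, and RELB with no scaling, a shift shared by all probes. For CTSS, the 50 units added under normexp exceed the signal in vehicle. The same count was 4 of 10 at 30 ng/kg. Low signal limits FCER1A, DNASE1L3 and CTSS, which were well above background on 0 to 2 arrays of at least 1 group.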
